A study of Mus musculus with 3 samples.

Results

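The chromosome 12 stretch around Tecpr2 and Tnfaip2 lies between 111.5 and 114.35 Mb of mouse chromosome 12 in mm9, the build of the array files. Its members are the 97 noncontrol probes of the array whose smaller coordinate falls in these 2.85 Mb, out of 39429 distinct probes. The window was placed with the log2 ratios of these same arrays in view. The members' ratios, and the calls of single probes as higher or lower, are therefore given as a description. The window as a whole was not tested. Of the 97 probes, 73 had signal well above background in Cy3 or Cy5 on every array and were kept, and they carry 54 gene or transcript names. The other 24 were too dim, 21 of them above background in no channel on any array.

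RM1 cells are a line from a mouse prostate cancer. The vehicle vector was transfected into the RM1-VE cells and MXRA7, a gene named after the remodelling of matrix, into the RM1-MXRA7 cells. Both were kept under G418 in DMEM with serum and taken in exponential growth, at day 2 per the labels. The labels do not say whether either line was a clone or a pool, nor whether the replicates were separate cultures, so the spread between arrays may be technical. Total RNA of both lines was hybridised together on each of 3 Agilent arrays, RM1-MXRA7 in Cy3 and RM1-VE in Cy5 on all of them. Each array thus gave 1 log2 ratio per probe, RM1-MXRA7 over RM1-VE, and means are given ± SD over n = 3 arrays. No dyes were swapped, so a bias of a probe towards 1 dye and a true difference of its transcript cannot be told apart, nor can fewer cells with a transcript and less of it per cell.

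The stretch is the distal part of mouse chromosome 12 and corresponds to the distal long arm of human chromosome 14. It begins with Dio3os and Dio3, at the distal end of the imprinted Dlk1-Dio3 cluster, and ends before the immunoglobulin heavy chain locus, which is expressed in B cells. Its genes have no common function: they include a dynein heavy chain, an HSP90 gene, the kinase gene Akt1 and adaptors of tumour necrosis factor receptors. Tecpr2 encodes a tectonin repeat protein that binds ATG8-family proteins of autophagosomes and helps to maintain the sites at which COPII vesicles leave the endoplasmic reticulum. Tnfaip2 is induced by tumour necrosis factor in many cells and encodes a relative of the exocyst subunit EXOC3 that takes part in forming membrane nanotubes.

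The last 30 bases of 4 probes are shown, those of the 2 genes that name the stretch and of the gene with its lowest ratio. In the Tecpr2 probe alone of these 4 some bases were also found in a probe elsewhere on the array. Bases 33 to 52 of that 60-base probe, which fall within the bases shown, are shared with a probe for Ccdc108.
Tecpr2 probe, bases 31 to 60: atcctgtgtggggctgggatgtggcttagt
Tnfaip2 first probe, bases 31 to 60: tggctctggggaccagtgggtcccacgggg
Tnfaip2 second probe, bases 31 to 60: ttgtcatgattcgaggctgggatttgaagc
Tdrd9 probe, bases 31 to 60: gtggcacgagaaaccctacgagtggaacca

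The 250 bases before the annotated start are shown for the 4 genes whose probes were at least 2-fold higher and for the gene with the lowest ratio. These sequences are from RefSeq on GRCm38.p6, a later build than that of the probes, so the 2 sets of coordinates are not comparable. Capitals mark matches on either strand, overlaps allowed, to GGGCGG (the GC box bound by Sp factors), CCAAT (bound by the factor NF-Y), TATAAA (the TATA box), TGACGTCA (the cyclic AMP response element) and the kappa-B consensus (by name). The first of the 2 Ankrd9 promoters listed is given.
Tecpr2 promoter, chr12:110889014-110889263, + strand: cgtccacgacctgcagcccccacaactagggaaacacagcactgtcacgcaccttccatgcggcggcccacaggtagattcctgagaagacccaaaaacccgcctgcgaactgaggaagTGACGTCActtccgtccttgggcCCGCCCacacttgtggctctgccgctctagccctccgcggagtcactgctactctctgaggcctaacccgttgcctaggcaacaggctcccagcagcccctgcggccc
Ankrd9 promoter, chr12:110979041-110979290, - strand: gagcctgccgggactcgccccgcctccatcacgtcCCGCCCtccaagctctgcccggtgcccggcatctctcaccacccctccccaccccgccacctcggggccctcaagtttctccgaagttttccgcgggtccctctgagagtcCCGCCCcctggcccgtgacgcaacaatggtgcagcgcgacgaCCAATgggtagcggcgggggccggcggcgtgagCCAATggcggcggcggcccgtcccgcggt
Rcor1 promoter, chr12:111039117-111039366, + strand: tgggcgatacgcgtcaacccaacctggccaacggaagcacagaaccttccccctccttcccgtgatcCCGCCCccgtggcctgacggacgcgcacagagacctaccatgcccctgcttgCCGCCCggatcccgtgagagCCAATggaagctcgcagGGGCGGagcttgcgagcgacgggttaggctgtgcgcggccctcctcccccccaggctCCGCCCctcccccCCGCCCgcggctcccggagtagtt
Tnfaip2 promoter, chr12:111442411-111442660, + strand: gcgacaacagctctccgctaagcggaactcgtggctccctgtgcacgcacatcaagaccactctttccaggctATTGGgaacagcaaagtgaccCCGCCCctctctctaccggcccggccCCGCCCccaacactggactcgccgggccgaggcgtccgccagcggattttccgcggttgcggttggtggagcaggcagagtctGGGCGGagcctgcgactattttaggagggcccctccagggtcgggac
Tdrd9 promoter, chr12:111971309-111971558, + strand: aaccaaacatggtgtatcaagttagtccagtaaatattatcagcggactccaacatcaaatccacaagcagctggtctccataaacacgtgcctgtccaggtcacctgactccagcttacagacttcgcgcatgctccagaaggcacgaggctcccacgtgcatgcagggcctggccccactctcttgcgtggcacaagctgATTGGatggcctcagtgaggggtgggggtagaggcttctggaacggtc

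The Tecpr2 promoter held 1 TGACGTCA and 1 GC box, that of Rcor1 held 5 GC boxes and 1 CCAAT, and that of Tnfaip2 held 3 GC boxes and 1 CCAAT. The Tdrd9 promoter held 1 CCAAT and no match to GGGCGG in these 250 bases, and no match to the kappa-B consensus was found in any of the 5. Among 50 promoters of genes of the stretch with a kept probe, 76.0% held GGGCGG, against 32.7% of all 32851 RefSeq promoters of the same length. TATAAA was in 2.0% against 12.4%, CCAAT in 15 of 50 promoters against 33.8%, TGACGTCA in 6.0% against 1.55% and the kappa-B consensus in 6.0% against 3.9%. The median number of CpG dinucleotides was 21.5 in the promoters of the stretch and 6 in all promoters. These shares are a description of the sequence, and genes with a kept probe are set here against all genes, whether or not RM1 cells express them.

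In the text, a probe rose or fell where limma called it in the same direction at adjusted p 0.05 in both of 2 fits over all 21792 kept probes. The first fit used ratios after loess, and the second the same ratios after a smooth surface over the array had been removed. By this rule 19 of the 73 kept members rose and 13 fell, while over all kept probes 11.7% rose and 11.9% fell. At 2-fold or more, 6 members rose and 2 fell, against backgrounds of 0.307% and 0.546%. Of those that fell, Kif26a was kept through its Cy5 (RM1-VE) signal alone. At 0.5 or more on the log2 scale, 14 rose and 4 fell, with 6.85% of all kept probes past that size in either direction. The window was chosen from these ratios, so nothing is read from these counts. The loess fit alone called 21 members higher and 19 lower, with 47.3% of all kept probes called in either direction.

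The members did not shift together. Their median log2 ratio was -0.0072 after loess and 0.0168 after surface removal, near the medians of all kept probes of -0.011 and 0.0107. The log2 ratios of the members ran from -2.02 to 2.25, and their SD over probes was 0.64 against 0.32 over all kept probes. Spread between arrays was much smaller, with a median SD of 0.13 per member. All 32 probes that rose or fell had the same sign on all 3 arrays, which selection by a call of the mean against 0 favours. Over the 73 members the log2 ratios of pairs of arrays correlated with r of 0.959, 0.923 and 0.941. Over all kept probes r was 0.846, 0.778 and 0.804, and probes of an array share its hybridisation. The window was chosen from these ratios, and probes far from 0 widen an SD and raise r. Nothing is read from either contrast.

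**Figure D1:**
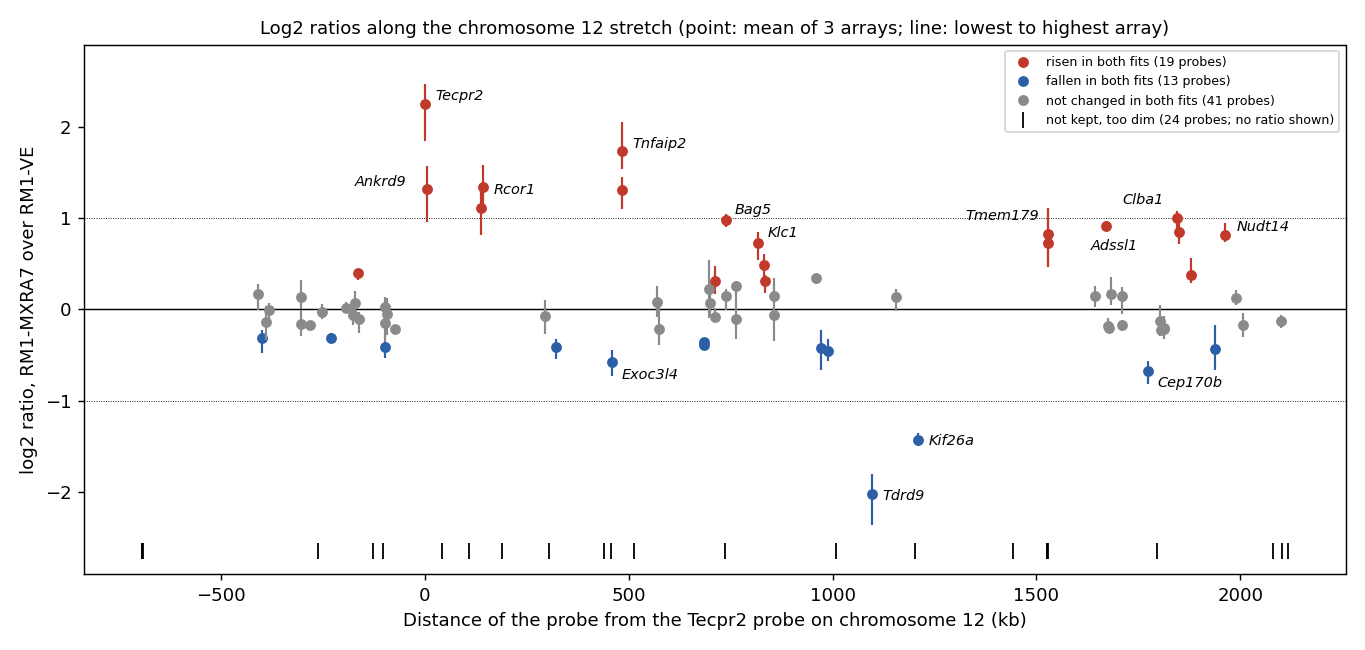
Log2 ratio of RM1-MXRA7 over RM1-VE of the 73 kept probes against their distance from the Tecpr2 probe in kb, with points for the mean of 3 arrays, lines from the lowest to the highest array, and ticks for the 24 dim probes. The 19 probes that rose and the 13 that fell are interspersed with the 41 others, with Tecpr2 highest at 2.25 and Tdrd9 lowest at -2.02; dotted lines mark 2-fold.

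Tecpr2 had the highest ratio of the stretch. Its processed signal was 694, 678 and 454 in Cy3 (RM1-MXRA7) on arrays 1, 2 and 3, and 82.8, 79.6 and 80.6 in Cy5 (RM1-VE). All 3 values of RM1-MXRA7 lay far above those of RM1-VE, the lowest on array 3. The genes with signals given by array were named for large ratios in a chosen window. A lack of overlap between the lines is favoured by that choice and is no added support. The log2 ratios after loess were 2.44, 2.46 and 1.84, with a mean of 2.25 ± 0.36, or 4.75-fold, and the mean was 2.35 after surface removal and 2.88, or 7.35-fold, with Agilent's processed signals. The probe covers chromosome 12, 112209537 to 112209596 (mm9).

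Ankrd9, whose ankyrin repeat protein is a substrate receptor of a cullin ubiquitin ligase, is the next kept probe, 5.22 kb further on (112214760 to 112214819). Its signal was 793, 772 and 579 in RM1-MXRA7 and 344, 323 and 332 in RM1-VE, again without overlap. The log2 ratios were 1.43, 1.57 and 0.96, with a mean of 1.32 ± 0.32, or 2.49-fold, and 1.099 after surface removal.

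Rcor1 encodes CoREST, the scaffold that joins the demethylase LSD1 to histone deacetylases, and both of its kept probes rose. The first (112347115 to 112348043, a span longer than the 60-base probe) had signals of 105, 95.8 and 65.6 in RM1-MXRA7 and 25.3, 31.3 and 24.4 in RM1-VE. The second (112351412 to 112351471) had signals of 6423, 4990 and 4135 against 1834, 1800 and 1770. At both probes every RM1-MXRA7 value was above every RM1-VE value. Their log2 ratios were 1.36, 1.15 and 0.81 at the first and 1.58, 1.38 and 1.06 at the second, with means of 1.11 ± 0.28 (1.69 with Agilent's processed signals) and 1.34 ± 0.27. Tecpr2, Ankrd9 and the 2 Rcor1 probes are 4 kept probes in a row, with 2 dim probes lying among them.

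Between Rcor1 and Tnfaip2 the pattern broke. Traf3, whose protein restrains noncanonical NF-kB signalling by holding the kinase NIK for degradation, had log2 ratios of 0.10, -0.06 and -0.27, with a mean of -0.08 ± 0.18, and was called in neither direction by both fits. Cdc42bpb, a kinase that acts downstream of Cdc42 on actomyosin, fell with a mean of -0.41 ± 0.12. Exoc3l4, a relative of Tnfaip2 in the EXOC3 family and its near neighbour, fell on all arrays, at -0.73, -0.45 and -0.56 (mean -0.58 ± 0.14). Its probe lies 23.5 kb from the first Tnfaip2 probe, so 2 adjacent kept genes of the same family had opposite signs.

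Both Tnfaip2 probes rose. The first (112692820 to 112692879) had signals of 6066, 7255 and 5419 in RM1-MXRA7 and 1967, 2513 and 2191 in RM1-VE. The second (112692959 to 112693018), 139 bases along, had 11210, 11340 and 9679 against 3250, 4211 and 3836. At neither probe did the lines overlap. The log2 ratios were 1.39, 1.45 and 1.104 at the first probe (mean 1.31 ± 0.18, 2.48-fold) and 2.05, 1.60 and 1.54 at the second (mean 1.73 ± 0.28, 3.32-fold). After surface removal the means were 1.54 and 1.53, closer to each other than after loess.

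The 2 members that fell by 2-fold or more lie near each other, with Aspg the 1 kept probe between them. Tdrd9, an RNA helicase of the piRNA pathway known from the male germ line (113305826 to 113305885), had signals of 115, 96.1 and 79.9 in RM1-MXRA7 and 393, 423.5 and 456 in RM1-VE. The lines did not overlap, and the log2 ratios were -1.80, -1.90 and -2.36 (mean -2.02 ± 0.30, 4.06-fold lower; -1.88 after surface removal). Kif26a, an unconventional kinesin (113419259 to 113419318), had signals of 2.40, 2.63 and 2.48 in RM1-MXRA7, not well above background on any array, and 45.2, 65.0 and 55.2 in RM1-VE. Its level in RM1-MXRA7 is therefore only bounded, and it was at least 2.38-fold lower than in RM1-VE, taking the higher of the probe's own value and the lowest signal well above background after loess and Aquantile. The log2 ratios were -1.35, -1.44 and -1.49 (mean -1.43 ± 0.07) after loess, and the mean was -2.76 with a normexp offset of 0 and -4.46 with Agilent's processed signals. A second Kif26a probe was above background in no channel on any array. On array 3 the ratio was the lowest of the arrays at all 8 of these probes, the 6 that rose and the 2 that fell; the median ratio of the members was 0.0685, 0.0036 and -0.0351 on arrays 1, 2 and 3.

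**Figure D2:**
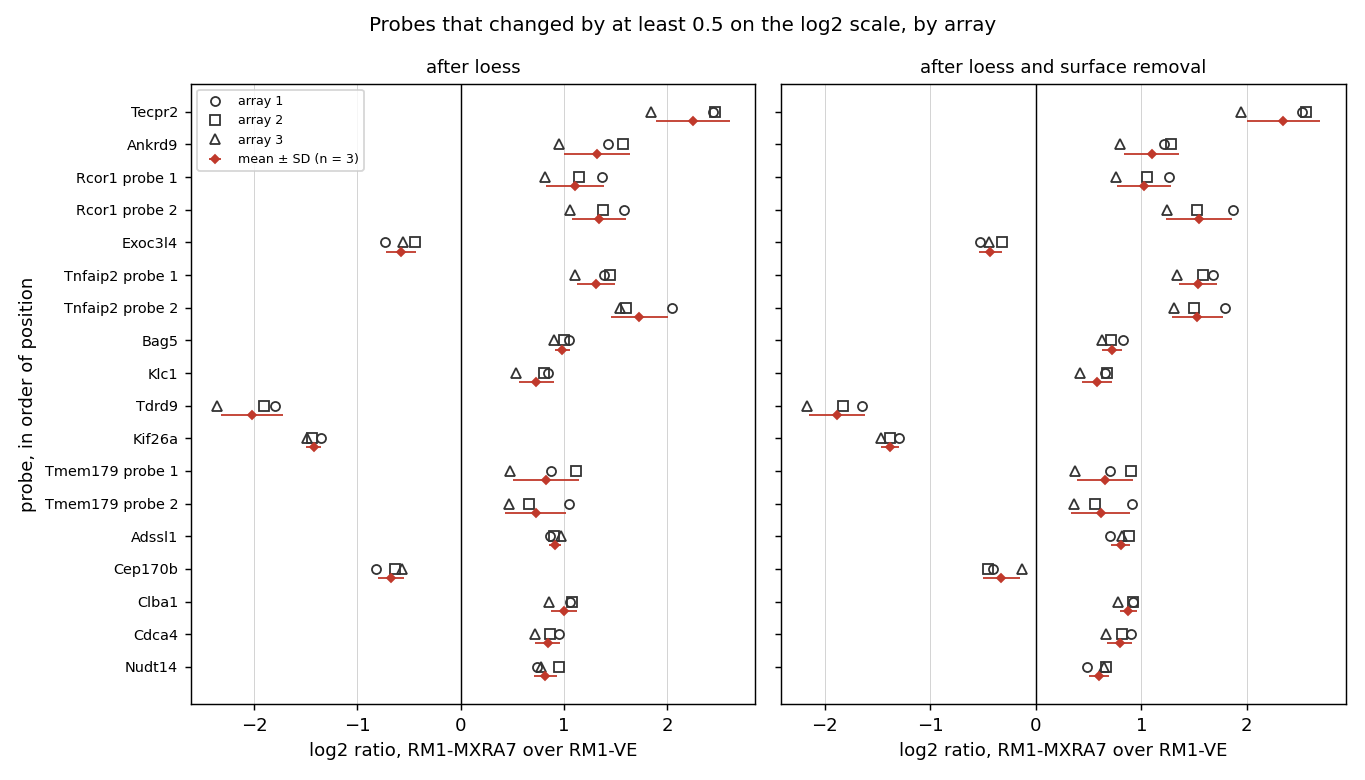
Log2 ratio of RM1-MXRA7 over RM1-VE on each of the 3 arrays (open symbols) and mean ± SD (red) for the 18 probes that changed by at least 0.5 after loess, in order of position, after loess on the left and with the surface removed on the right. All points of a probe lie on 1 side of 0 in both panels, which the choice of called probes favours. Cep170b moves from -0.68 to -0.33.

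The first genes of the stretch showed small ratios. Ppp2r5c, a regulatory subunit of protein phosphatase 2A, had 3 kept probes with means of 0.17 ± 0.16, -0.31 ± 0.14 and -0.14 ± 0.19, of which the second fell. Dync1h1, the heavy chain of cytoplasmic dynein, was at -0.16 ± 0.14, and Hsp90aa1, the stress-inducible cytosolic HSP90, at -0.17 ± 0.02, neither called by both fits. Wdr20, a partner of the deubiquitinases of the USP12 group, had probes at 0.02 ± 0.05 and -0.07 ± 0.16. The 2 probes of Mok, a kinase related to the MAP kinases, lay 2811 bases apart and differed by 0.50: the first rose with 0.39 ± 0.06, and the second had -0.11 ± 0.13. Cinp, a CDK2-interacting protein, was at -0.15 ± 0.23, 0.03 ± 0.14 and -0.05 ± 0.21, while an unnamed probe starting 17 bases from a Cinp probe fell with -0.41 ± 0.11. The transcript 4930421J07Rik fell with -0.31 ± 0.06, and was not called with Agilent's processed signals (-0.12). The transcripts LOC101056497, 1700001K19Rik, 2900016J10Rik and 2 unnamed probes had means between -0.22 and 0.13 and were not called by both fits.

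Past Tnfaip2 the ratios were small again. Eif5, the factor that triggers GTP hydrolysis in translation initiation, had probes at 0.08 ± 0.17 and -0.22 ± 0.23. Mark3, a microtubule affinity-regulating kinase, fell at 2 probes that start 1 base apart and so measure the same site, with -0.36 ± 0.06 and -0.39 ± 0.03. With Agilent's processed signals they were at -0.17 and -0.16 and neither was called. Ckb, the brain creatine kinase, was at 0.22 ± 0.31 and 0.07 ± 0.21. Trmt61a, a tRNA methyltransferase subunit, rose with 0.31 ± 0.15, but was at -0.04 when arrays were centred on their medians in place of loess.

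Bag5, a co-chaperone that exchanges the nucleotide of HSP70, had the widest gap between probes of a gene after loess, 0.84, which was 0.35 after surface removal. Its 2 probes start 363 bases apart: the first rose, with log2 ratios of 1.05, 1.00 and 0.91 (mean 0.98 ± 0.07), and the second had a mean of 0.14 ± 0.13. After surface removal the means were 0.72 and 0.37. Klc1, a light chain of the kinesin motor, rose at both probes, with 0.73 ± 0.17 and 0.31 ± 0.11. Xrcc3, a homologous recombination factor whose probe lies between those of Klc1, rose with 0.49 ± 0.14. The 2 probes of Coa8, a cytochrome oxidase assembly factor, had 0.26 ± 0.08 and -0.10 ± 0.27 after loess and 0.04 and -0.58 after surface removal, the widest gap of a gene in that fit, 0.62. They were not called by both fits and share runs of 20 or more bases with 5 and 11 other probes.

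Zfyve21, a focal adhesion protein, and Ppp1r13b, a partner of p53, start 0.494 kb apart at their probes and had 0.15 ± 0.11 and -0.06 ± 0.37. The 2 features called between them and Tdrd9 fell, 5033406O09Rik with -0.42 ± 0.22 and Atp5mpl, a small membrane subunit of ATP synthase, with -0.46 ± 0.12. Aspg, an asparaginase between Tdrd9 and Kif26a, was at 0.14 ± 0.14. The unnamed transcripts TC1685473 and NAP068456-1 were at -0.09 and 0.34 and were not called by both fits.

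**Figure D3:**
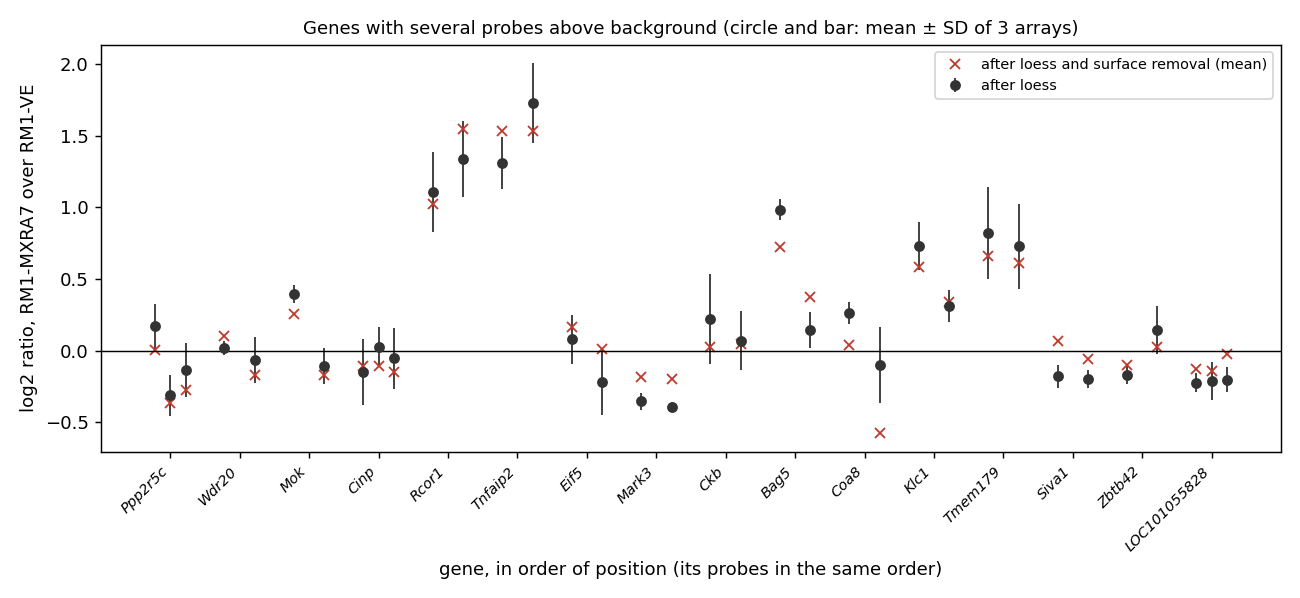
Log2 ratio of RM1-MXRA7 over RM1-VE for each kept probe of the 16 genes with several kept probes, as mean ± SD of 3 arrays after loess (circles) and mean after surface removal (crosses), with the probes of a gene in order of position. Rcor1, Tnfaip2, Klc1 and Tmem179 rose at both probes, and those of Tmem179 overlap. Bag5 and Mok are the 2 genes whose probes differ by 0.5 or more after loess.

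Past Kif26a, 319 kb hold no kept probe; the 4 probes there, 3 of them for A530016L24Rik, were dim. The distal part then held 7 of the 19 probes that rose. Tmem179, which encodes a transmembrane protein, rose at 2 probes with 0.82 ± 0.32 and 0.73 ± 0.30. These probes start 8 bases apart, overlap and so measure the same site. Adssl1, the muscle-type adenylosuccinate synthase of AMP synthesis, had log2 ratios of 0.86, 0.91 and 0.97, and rose with 0.91 ± 0.06. Clba1, which binds clathrin, rose at 1.06, 1.08 and 0.85, for a fold change of 1.995 that fell just short of 2.

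Cdca4, a cell-cycle gene of the SERTA family, adjoins Clba1 and is the 1 member spotted 10 times on each array. The 10 spots ran from 0.64 to 1.24 on array 1, from 0.54 to 1.17 on array 2 and from 0.33 to 0.93 on array 3, all above 0. Their means of 0.95, 0.86 and 0.72 gave a rise of 0.84 ± 0.12. Gpr132, a G protein-coupled receptor known from immune cells, rose with 0.38 ± 0.16, so that Clba1, Cdca4 and Gpr132 are 3 rises in a row. Jag2, a Notch ligand, followed and fell with -0.43 ± 0.25, and Nudt14, a UDP-sugar pyrophosphatase, rose with 0.82 ± 0.11.

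Between these rises lay genes with small ratios, and Cep170b, which fell. Akt1, the growth factor-regulated kinase, was at 0.16 ± 0.17 after loess and -0.03 after surface removal. Inf2, a formin, was at 0.15 ± 0.11, and Siva1, a pro-apoptotic protein, at -0.18 ± 0.08 and -0.20 ± 0.06 at its 2 probes. Zbtb42, a zinc finger gene, was at -0.17 ± 0.06 and 0.14 ± 0.17. Cep170b, a relative of a centrosomal protein, fell with -0.68 ± 0.13 after loess and -0.33 after surface removal; its probe shares runs of 20 or more bases with 80 other probes, so its signal need not be from this gene alone. The 3 LOC101055828 probes were between -0.23 and -0.20 and ENSMUST00000101010 at -0.13, none called by both fits.

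At the distal end, Brf1, a subunit of the RNA polymerase III factor TFIIIB, was at 0.13 ± 0.09, Btbd6, an adaptor of cullin ligases, at -0.17 ± 0.13 and Pacs2, a sorting protein of membrane contacts, at -0.12 ± 0.07. These are the last 3 kept probes inside the window, and the first 3 are those of Ppp2r5c. Just outside the proximal end were AK053394 at -0.29 and 2 probes of Mirg, a transcript of the imprinted cluster, at 0.14 and 0.12. Just outside the distal end were Mta1, a subunit of the NuRD deacetylase complex, at -0.20, and the LIM-domain genes Crip2 at -1.103 and Crip1 at -4.09. The upper limit of the window thus leaves out Crip1, whose ratio is more extreme than any inside it.

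The dim probes were those of Dio3os, Dio3, C76472, 4921507G05Rik, Zfp839, 6030440G07Rik, Gm10158, 4930595D18Rik, Amn, Lbhd2, LOC101056101, Gm266, C80120, Rd3l, 1 of Kif26a, ENSMUST00000050754, A530016L24Rik, Pld4, BC131793 and Tex22. Amn is a partner of cubilin in the gut and kidney, and Pld4 belongs to immune cells. RefSeq lists 55 protein-coding genes from Dio3 to Tex22 in GRCm38.p6. Matched by name, 52 had a probe here and 43 had a kept one. No probe of this window carries the name of Ahnak2, a giant scaffold protein gene that RefSeq places between Pld4 and Clba1. The kept probes of ENSMUST00000101010 and LOC101055828 lie between those of Pld4 and Clba1. Whether they measure Ahnak2 was not tested.

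The stretches of the same length on either side were sparser in signal. In the preceding stretch 22 of 45 probes were kept and in the following one 15 of 148, against 73 of 97 here. In the preceding stretch 2 fell and 20 were not called by both fits (limma's loess fit alone called 1 higher and 5 lower), with ratios from -0.44 to 0.31 and an SD over probes of 0.19. In the following stretch 3 fell and 12 were not called by both fits (2 higher and 5 lower by the loess fit alone), and 2 of the falls, Crip2 and Crip1, were 2-fold or more. On the rest of chromosome 12, 69 of 716 kept probes rose and 120 fell, with 20 rises and 2 falls of 2-fold or more. Because the window was drawn on these ratios, no test of this contrast was made.

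**Figure D4:**
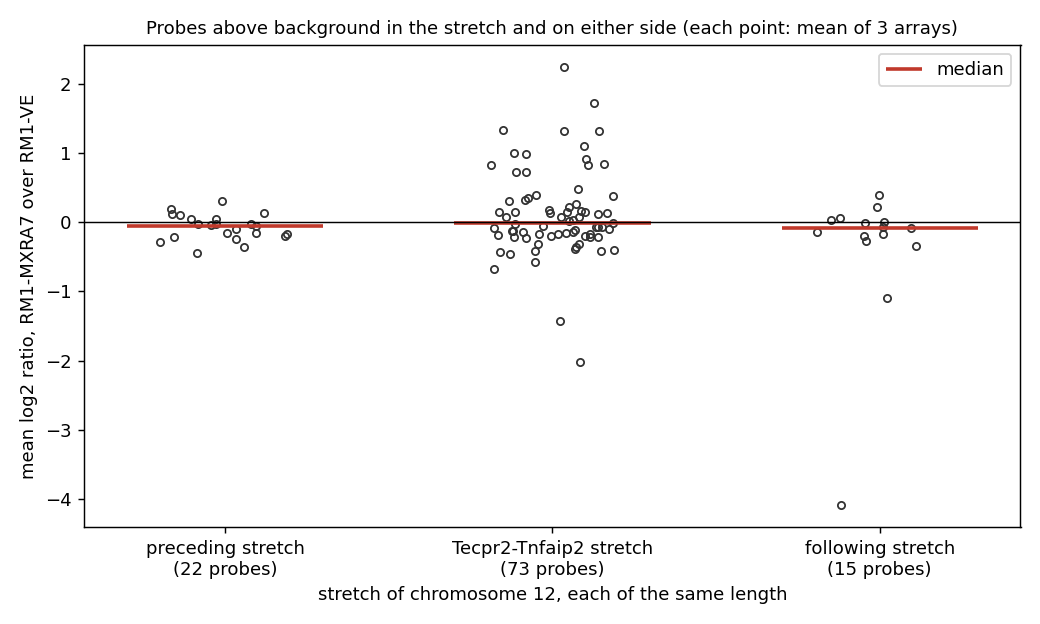
Mean log2 ratio over 3 arrays of each kept probe in the stretch and in the stretches of 2.85 Mb before and after it, with red lines at the medians of -0.05, -0.0072 and -0.08; horizontal scatter has no meaning. Probes above 0.5 are seen in the Tecpr2-Tnfaip2 stretch and in neither neighbour.

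Genes elsewhere that work with the products of the stretch were listed for comparison. Of 15 measured TRAF3 partners (receptors, TRAF proteins and kinases of NF-kB signalling), 3 rose and 12 were not called by both fits, with a median of -0.04 after loess and 0.12 after surface removal, so that its sign turned. The largest were Tnfrsf12a, the TWEAK receptor, with 0.41 ± 0.08 (limma adjusted p = 0.000434), and Traf2, with 0.38 ± 0.10 (limma adjusted p = 0.000778), each higher on 3 of 3 arrays; with arrays centred on their medians these were -0.19 and -0.05. Of 12 measured genes of 13 listed for the exocyst, the EXOC3 family and Ral, kin and partners of Tnfaip2, 3 fell and 9 were not called by both fits, with a median of -0.18 after loess and -0.05 after surface removal. Exoc5 fell with -0.62 ± 0.11 (limma adjusted p = 1.1e-05) and Exoc6 with -0.43 ± 0.21 (limma adjusted p = 0.0007), both lower on 3 of 3 arrays. Of 17 COPII and ATG8 genes, partners of Tecpr2, 2 rose, Sec16a with 0.53 ± 0.05 (limma adjusted p = 3.8e-05; 0.21 after surface removal, limma adjusted p = 0.0204) and Gabarap with 0.49 ± 0.07 (limma adjusted p = 9.4e-05). The other 15 were not called by both fits. Sec16a and Gabarap were higher on 3 of 3 arrays, and Gabarap was at -0.16 with median centring. Neither gene was called with Agilent's processed signals (0.16 and 0.30) or the series matrix, nor Sec16a with median centring (0.19). The median of that list was 0.12 after loess and 0.13 after surface removal. Over all kept probes 23.6% were called in either direction by both fits.

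On the whole array, 21767 to 24175 of the 39429 probes were well above background in a channel. Removal of the surface lowered the variance of the log2 ratios by 27.3%, 25.8% and 19.8% on arrays 1, 2 and 3. Of the 2 Mxra7 probes, 1 had 0.31 ± 0.14 after loess and 0.019 after surface removal, and the other 0.10 ± 0.04, so these arrays do not check the labelled overexpression. Krt8, Krt18, Vim, Fn1 and Cdh2 were above background in both channels on all arrays, whereas the prostate marker Pbsn and the epithelial markers Epcam and Cdh1 were in neither channel. Of the other cell types' markers, Ptprc and Hbb-b1 were above background on no array, Hba-a1 on 1 in Cy3 and 2 in Cy5, and Cd68, Cd3e, Pecam1, Cdh5 and Kdr on all. The endothelial marker Cdh5 had a log2 ratio of -0.87 after loess and -0.77 after surface removal; the markers' part in the results was not tested.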

How the data were processed

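The authors deposited 1 Feature Extraction file per array (Agilent, version 10.7.1.1 per the submitters' processing notes), which holds, per the file headers, mean and background intensity and processed intensity of each spot in both channels, with flags. They also deposited a series matrix with a linear ratio per probe, found here to be Cy3 over Cy5 processed intensity (within 1% for 100% of values), with column medians of 1.02, 1.03 and 0.972, so not centred.

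Intensities were background-corrected by normexp (offset 50) and loess-normalized within arrays, control spots at weight 0, in limma 3.58.1 under R 4.3.3. Outlier spots were dropped and spots of a probe averaged. Log2 ratios of all 21792 kept probes were tested against 0 with lmFit and eBayes and adjusted by Benjamini-Hochberg. The second fit removed, per array, a polynomial surface of degree 4 in row and column, alone and times log2 intensity. Such p-values cover no more than the spread from array to array. The steps were tested on simulated data. A simulation with each probe's raw SD as its true spread missed its recovery goal for a 2-fold rise. It recovered fewer of the rises smaller than that, for which no goal was set. An easier simulation with moderated variances replaced it and met the goal. Correlation of the deviations of the 2 channels on each array (0.724, 0.682 and 0.691) and the shared hybridisation pair the lines by array, so the ratio holds the block.

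The members and lists were chosen with earlier results of these data known. Named with every array's value are Tecpr2, Tnfaip2 and genes with a ratio of 2-fold or more; others were named by role, by position at the window's ends, or as the 2 largest calls of a partner list. Further array values were added after they were seen. RefSeq names came through accessions for 75 of the 97 probes. Some of the cell type markers listed are not reported here. No annotation of mm9 was used here, so probes are not placed in exons or UTRs. Alternatives covered background correction, normalization, filter, probe choice, series matrix values, arrays left out and the replicate block.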

Additional observations from a re-analysis of the deposited data

How the results depend on the processing

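For the 32 probes that rose or fell, 440 values under the alternatives gave 416 with the same direction and call in the loess fit, 23 past the threshold no longer and 1 reversed (Trmt61a). The calls lost were those of Mark3 and 4930421J07Rik with Agilent's processed signals and the series matrix, Xrcc3, Gpr132 and the second Klc1 probe with median centring, Ppp2r5c without array 2, Trmt61a without array 1, and otherwise calls without the replicate block. The 8 probes at 2-fold or more kept direction and call in all 109 of theirs. Kif26a, kept through Cy5 alone, has no value where both channels must have signal, so that setting does not check its fall. Centring arrays on their medians in place of loess moved the median of all kept probes to -0.2687 and that of the members to -0.3036. It gave 39 members called lower (19 after loess), 3 at least 2-fold higher (6 after loess) and 5 at least 2-fold lower (2 after loess). Of all kept probes, 62.3% were called in either direction with that centring and 47.3% after loess. With that centring the partner lists had 0 genes called higher and 32 lower (10 and 10 after loess), and Trmt61a was at -0.0356, Gabarap at -0.1629, Tnfrsf12a at -0.1915 and Traf2 at -0.0508. Relative to the shifted median these 4 stayed above it.

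Without the replicate block, single channels gave 14 members called higher and 6 lower, and partner lists 3 and 0. With the array as block they gave 21 and 19 members, as the ratios did. Of all kept probes, 12.4% were called without the block and 47.3% with it. Agilent's processed signals and the series matrix each gave partner lists 3 higher and 2 lower, and surface removal 3 lower. Of all kept probes, these settings called 21.8%, 21.8% and 31.9%. Requiring signal in both channels left 1 member at least 2-fold lower, since Kif26a has no value there, and no filter gave a median of -0.0768. Leaving out 1 array gave 20 to 25 members called higher, 13 to 19 lower, 5 to 8 at least 2-fold higher and 2 lower. Of all kept probes, 33.9%, 30% and 42.7% were called without arrays 1, 2 and 3. The partner lists then had 5 to 9 higher and 5 to 7 lower: 5 higher without array 1, and 5 and 6 lower without arrays 2 and 3. Causes were not tested. The number of arrays, 3, and signal near background at 24 of 97 probes limit what can be seen.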
